A study of Mus musculus with 6 samples.

Results

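The genes described here are 10 imprinted genes that act on or mark fetal growth: Igf2, H19, Dlk1, Meg3, Rian, Mirg, Peg3, Peg10, Cdkn1c and Grb10. They were chosen by name from the 55359 annotated genes of an RNA sequencing study of whole brains from E18.5 mouse embryos, late in gestation. All 10 were found and all 10 had a mean level of at least 1 TPM (a share of the library's transcripts, corrected for transcript length). Libraries came from S156A embryos, which carry the S156A form of PME-1 (alanine in place of a serine of the active site), and from wild-type (WT) embryos. There were 3 libraries per genotype, each from a pool of 3 brains, so the spread between libraries is a spread between pools and not between embryos. PME-1, encoded by Ppme1, is the esterase that demethylates the catalytic subunit of protein phosphatase 2A. The sources used here give no strain, sex or litter of the embryos. The comparison asks which of these genes differ between S156A and WT brains, and each was also set beside Acta1, the actin of skeletal muscle.

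An imprinted gene is transcribed mainly from the copy inherited from 1 parent, and the choice is set by methylation of DNA laid down in the germ line. Many imprinted genes act on fetal growth: Igf2, Dlk1, Peg3 and Peg10 are expressed from the paternal copy, while H19, Meg3, Rian, Mirg and Cdkn1c are expressed from the maternal copy. Grb10 is expressed from the maternal copy in most mouse tissues and from the paternal copy in neurons. In the fetus Igf2, H19, Dlk1 and Cdkn1c are abundant in mesenchyme and muscle, and in and around the brain Igf2 is known from the meninges, the vessels and the choroid plexus. The tables do not separate the parental copies, so each value is the sum over both.

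Several of the noncoding members are hosts of microRNAs, and these are shown because their rows in the tables report on the host transcript. H19 holds the hairpin of miR-675, Meg3 those of miR-1906 and miR-770, and Mirg that of miR-410. In the mature sequences below, from RefSeq on GRCm38.p6, capitals mark the seed, bases 2 to 8.
mmu-miR-675-5p: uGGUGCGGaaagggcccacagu
mmu-miR-675-3p: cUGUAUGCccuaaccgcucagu
mmu-miR-1906: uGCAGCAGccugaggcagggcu
mmu-miR-770-5p: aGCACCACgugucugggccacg
mmu-miR-770-3p: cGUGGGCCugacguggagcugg
mmu-miR-410-5p: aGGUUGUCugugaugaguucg
mmu-miR-410-3p: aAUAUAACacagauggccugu
None of these 7 seeds was shared with another. Among all the mature microRNAs of hairpins that lie in the 10 genes, the only shared seed was that of a pair hosted by Mirg.
mmu-miR-453: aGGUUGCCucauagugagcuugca
mmu-miR-496a-5p: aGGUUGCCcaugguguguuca
The libraries were made from total RNA without a small RNA step named in the labels, so a hairpin row counts reads of the host transcript that cross the hairpin and does not measure the mature microRNA.

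The 6 libraries differed in their level of muscle transcripts. Estimated depth was 3.24 to 4.14 aligned gigabases in S156A and 3.15 to 3.37 in WT. Ppme1 itself stood at 72.4 to 89.0 TPM in S156A and 74.0 to 95.03 TPM in WT, and a changed residue need not alter its transcript, so this does not check the genotype labels. Brain neuron markers were present in every library, with 15 genes summing to 3365 to 4882 TPM in S156A and 4261 to 5719 TPM in WT. Acta1 was at 2611, 17.7 and 18.7 TPM in S156A replicates 1 to 3, against 8.22, 333 and 2472 TPM in WT replicates 1 to 3. S156A replicate 1 and WT replicate 3 were thus far above the other 4 libraries, and WT replicate 2 lay between. All 22 genes of a skeletal muscle list had these same 2 libraries as their highest, and their summed level was 10610, 97.9 and 86.4 TPM in S156A and 31.0, 1228 and 10280 TPM in WT. At 0 TPM among them were Myod1 in S156A replicate 2 and Tnni1 and Tnnc2 in WT replicate 1. Mylpf, a fast muscle myosin light chain, was at 1864, 17.4 and 12.9 TPM in S156A and 2.17, 285 and 1915 TPM in WT. A list of 22 tested genes of mesenchyme, meninges, bone and cartilage had 19 with the same 2 libraries highest, and 23 such genes summed to 5774, 2056 and 2417 TPM in S156A and 961.6, 1732 and 4274 TPM in WT. A large part of this sum was Ptgds, at 1335, 1148 and 1502 TPM in S156A and 465.5, 768 and 769 TPM in WT. Ptgds did not have those 2 libraries highest. The differences of all 10 members are therefore given below with and without S156A replicate 1 and WT replicate 3.

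None of the 10 genes passed the test between genotypes. In limma with Benjamini-Hochberg adjustment over all 18893 tested genes, 0 of 10 had an adjusted p under 0.05, where 30 of all tested genes did, a share of 0.159% (0.0847% higher and 0.0741% lower in S156A). At an unadjusted limma p under 0.05 there was 1 member, Peg10, against 2628 of all tested genes or 13.9% (8.41% higher and 5.5% lower in S156A). The median log2 difference of the 10 genes, S156A minus WT, was -0.17, with 4 positive and 6 negative, and the median over all tested genes was 0.09. Peg10 was also the only member whose groups did not overlap, in a background where 20.8% of tested genes had separate groups, 13.7% with S156A higher and 7.05% with S156A lower. With 3 libraries against 3 an exact permutation test cannot go below p = 0.1. A difference between groups can be a difference in the amount of RNA per cell or in the number of cells of a type, and the bulk libraries cannot tell these apart.

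**Figure D1:**
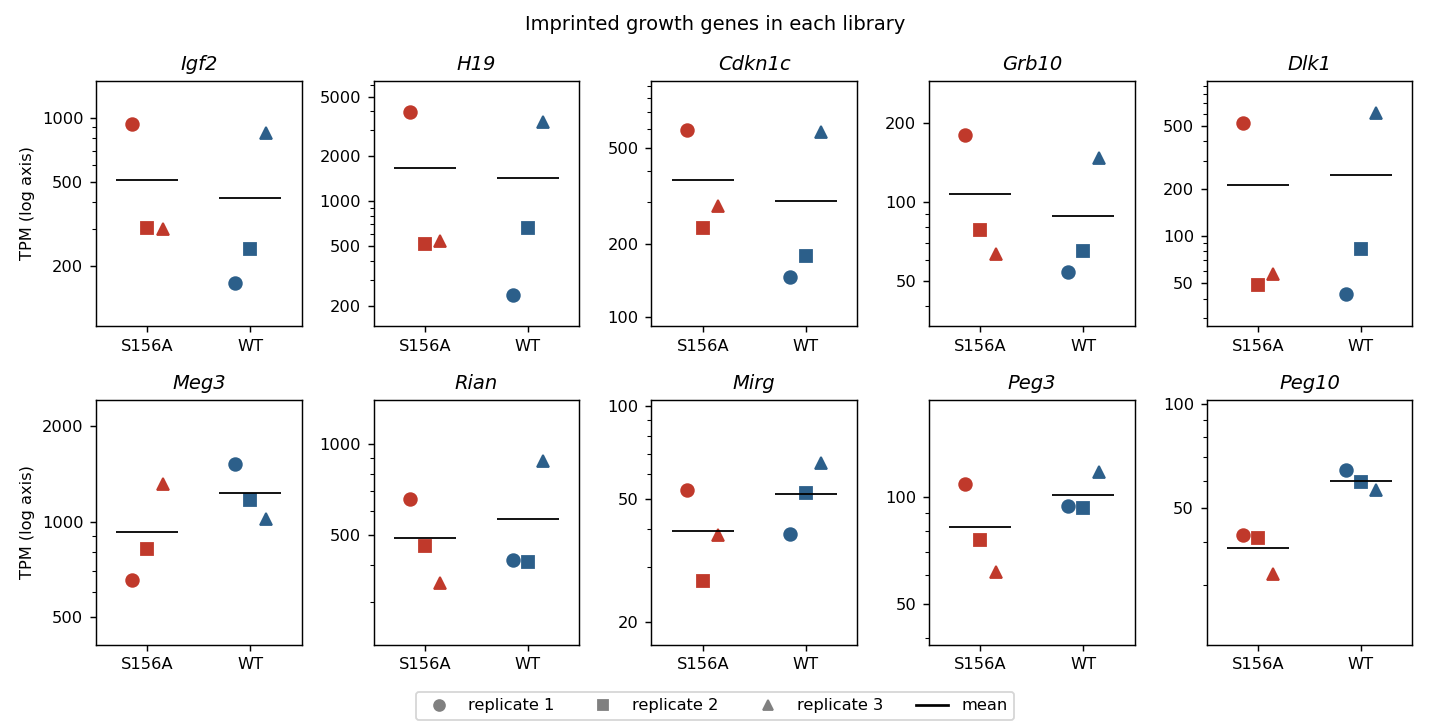
Levels of the 10 imprinted genes in each library, in TPM on a log axis, with S156A libraries left of WT libraries and a bar at each group mean. S156A replicate 1 and WT replicate 3 were the 2 highest libraries for 8 of the 10 genes, and Peg10 was the only gene whose groups did not overlap.

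Levels per transcript length ran over more than an order of magnitude. By WT mean the order was H19, Meg3, Rian, Igf2, Cdkn1c, Dlk1, Peg3, Grb10, Peg10 and Mirg, from 1434 TPM for H19 to 52.0 TPM for Mirg. Only Meg3 and Rian differed from each other by more than the larger of their WT standard deviations among neighbours in this order. By S156A mean H19 was again first, at 1677 TPM, and Peg10 last, at 38.4 TPM.

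Igf2 (ENSMUSG00000048583.17, chromosome 7, 142204503 to 142220553, minus strand, in the coordinates of the files, for which the sources name no mouse build) encodes insulin-like growth factor 2, a fetal growth factor that signals through the type 1 insulin-like growth factor receptor. It was at 929, 301 and 299.5 TPM in S156A replicates 1 to 3, against 167, 241.5 and 843.5 TPM in WT replicates 1 to 3. S156A replicate 1 and WT replicate 3 were highest, and the groups overlapped. The means were 510.1 ± 363 TPM in S156A and 417 ± 371 TPM in WT (SD, n = 3 each). The log2 difference was 0.43 (SE 0.67, limma adjusted p = 0.82, exact permutation p = 0.5). Without S156A replicate 1 and WT replicate 3 both remaining S156A libraries lay above both remaining WT libraries, with a mean difference of 0.58 on the log2 scale (SE 0.19, limma adjusted p = 0.23). The sign over all 6 libraries rests on single libraries: the difference was -0.11 without S156A replicate 1 and -0.04 without WT replicate 1.

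H19 (ENSMUSG00000000031.17, chromosome 7, 142129266 to 142131880, minus strand) is the noncoding RNA downstream of Igf2 and shares its enhancers, with the choice between them set by methylation of the region between the 2 genes. It was at 3969, 519.5 and 544 TPM in S156A replicates 1 to 3, against 235, 667 and 3399 TPM in WT replicates 1 to 3. Its highest library stood 16.9-fold over its lowest, the widest range of the 10 genes. On the log2 scale S156A minus WT came to 0.36 (SE 1.11, limma adjusted p = 0.92, exact permutation p = 0.9). The sign turned to -0.61 without S156A replicate 1 and to -0.54 without WT replicate 1, and without both S156A replicate 1 and WT replicate 3 the value was 0.42 (SE 0.47, limma adjusted p = 0.68). The row of Mir675, whose hairpin lies in H19, was at 3496, 464 and 467 TPM in S156A and 204, 578 and 2886 TPM in WT, the same order of libraries as H19.

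The log2 ratio of Igf2 to H19 within a library was -2.09, -0.78 and -0.86 in S156A, against -0.49, -1.46 and -2.01 in WT. It was lowest in S156A replicate 1 and WT replicate 3, where H19 exceeded Igf2 by most. The mean difference between the genotypes was 0.08 (exact permutation p = 1.0), and 0.16 without S156A replicate 1 and WT replicate 3. Gm49394, an annotated gene that overlaps Igf2 on the same strand, followed it closely at 245 to 763 TPM in S156A and 136.5 to 688 TPM in WT. Reads may be split between that row and Igf2, so the Igf2 values are uncertain to that extent. Igf2os lies on the opposite strand and had a mean of 3.56 TPM.

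Cdkn1c (ENSMUSG00000037664.14, chromosome 7, 143012076 to 143014787, minus strand) encodes a cyclin-dependent kinase inhibitor that restrains proliferation. It was at 589.9, 233 and 288 TPM in S156A replicates 1 to 3, against 147, 179 and 579 TPM in WT replicates 1 to 3. S156A replicate 1 and WT replicate 3 were almost equal, with a ratio of 1.02. The log2 difference was 0.46 (SE 0.55, limma adjusted p = 0.76, exact permutation p = 0.5). In the other 4 libraries both S156A values lay above both WT values, with a mean difference of 0.67 on the log2 scale (SE 0.16, limma unadjusted p = 0.0066, limma adjusted p = 0.16). With all 6 libraries but S156A replicate 1 the difference was 0.06, without WT replicate 1 it was 0.08, without WT replicate 2 it was 0.22, without S156A replicate 2 it was 0.73, and without WT replicate 3 it was 1.07. Of all tested genes, 32.2% had both S156A libraries above both WT libraries among these 4. Gm44732, which overlaps Cdkn1c on the opposite strand, had a mean of 2.61 TPM.

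Grb10 (ENSMUSG00000020176.18, chromosome 11, 11880508 to 11988683, minus strand) encodes an adaptor protein that binds insulin and insulin-like growth factor receptors and restrains their signalling. Its levels were 181, 78.2 and 63.4 TPM in S156A replicates 1 to 3, against 53.9, 65.1 and 147 TPM in WT replicates 1 to 3. Again the libraries with most Acta1 were highest, 2.31 and 2.85 times the other S156A libraries and 2.73 and 2.26 times the other WT libraries. On the log2 scale the difference came to 0.26 (SE 0.48, limma adjusted p = 0.85, exact permutation p = 0.6). It was -0.19 without S156A replicate 1 and 0.25 without both S156A replicate 1 and WT replicate 3 (SE 0.16, limma adjusted p = 0.48).

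Dlk1 (ENSMUSG00000040856.18, chromosome 12, 109418749 to 109429262, plus strand) encodes a membrane and secreted protein related to Notch ligands that acts in muscle, fat and pituitary development. It was at 525, 48.6 and 57.4 TPM in S156A replicates 1 to 3, against 42.9, 82.8 and 604 TPM in WT replicates 1 to 3. The 2 libraries with most Acta1 stood 7.29 to 14.1 times above the others of their genotype. Its log2 difference between genotypes was -0.18 (SE 1.18, limma adjusted p = 0.96, exact permutation p = 0.8), and it ran from -1.28 without S156A replicate 1 to 0.92 without WT replicate 3. Leaving out both of these libraries gave -0.17 (SE 0.31, limma adjusted p = 0.82). Rtl1, the retrotransposon-derived gene of the same locus, was at 20.4, 3.83 and 3.61 TPM in S156A and 5.73, 9.02 and 19.9 TPM in WT. This neighbour, chosen after its values were seen, was also highest in S156A replicate 1 and WT replicate 3.

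Meg3 (ENSMUSG00000021268.18, chromosome 12, 109506884 to 109538160, plus strand) is a maternally expressed noncoding RNA of the Dlk1 locus that is abundant in neurons. It was at 654, 818 and 1313 TPM in S156A replicates 1 to 3, against 1521, 1167 and 1019 TPM in WT replicates 1 to 3. S156A replicate 1 was here the lowest library and WT replicate 1 the highest, and the groups overlapped. The log2 difference was -0.45 (SE 0.28, limma adjusted p = 0.51, exact permutation p = 0.3). It was -0.36 without S156A replicate 1 and WT replicate 3 (SE 0.26, limma adjusted p = 0.52), and ran from -0.74 without S156A replicate 3 to -0.23 without S156A replicate 1.

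Rian (ENSMUSG00000097451.12, chromosome 12, 109570242 to 109628150, plus strand), the next noncoding RNA and a host of small nucleolar RNAs, was at 660.1, 460.5 and 348 TPM in S156A replicates 1 to 3, against 413.5, 408 and 879 TPM in WT replicates 1 to 3. Mirg (ENSMUSG00000097391.9, chromosome 12, 109696198 to 109715894, plus strand), the microRNA-rich transcript further along, was at 53.2, 27.0 and 38.0 TPM in S156A, against 38.4, 52.1 and 65.4 TPM in WT. Both had WT replicate 3 highest and S156A replicate 1 second, with overlapping groups. Their log2 differences were -0.16 (SE 0.35) for Rian and -0.41 (SE 0.28) for Mirg, with limma adjusted p of 0.88 and 0.55 and exact permutation p of 0.7 and 0.4. Without S156A replicate 1 and WT replicate 3 they were -0.04 (SE 0.16) for Rian and -0.47 (SE 0.23) for Mirg, with limma adjusted p of 0.93 and 0.37.

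Within the locus the log2 ratio of Dlk1 to Meg3 was -0.32, -4.05 and -4.49 in S156A and -5.12, -3.80 and -0.75 in WT, a mean difference of 0.27 (exact permutation p = 0.8), and 0.19 without S156A replicate 1 and WT replicate 3. By these annotated rows Dlk1 was nearest to Meg3 in S156A replicate 1 and WT replicate 3. By the assembled loci described below the same ratio was -2.21, -4.99 and -4.76 in S156A and -5.47, -4.45 and -2.28 in WT, so the same 2 libraries were highest with Dlk1 further under Meg3. The ratio of Rian to Meg3 was 0.01, -0.83 and -1.91 in S156A and -1.88, -1.51 and -0.21 in WT on the log2 scale. That of Mirg to Meg3 was -3.60, -4.87 and -5.07 in S156A and -5.27, -4.46 and -3.94 in WT. The mean differences were 0.29 and 0.04 (exact permutation p = 0.8 and 1.0).

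The tables also hold assembled loci, and the sources used here do not say how far these relied on the annotation. For each member and library the locus on the same strand with the largest overlap was taken. Its extent may differ between libraries or take in neighbouring transcripts, which was not checked. For Meg3 the assembled locus had 2429, 1575 and 1603 TPM in S156A and 2089, 1826 and 2934 TPM in WT. By this measure Meg3 too was highest in WT replicate 3 and S156A replicate 1, unlike its annotated row. The row of Mir1906-1, whose hairpin lies in Meg3, was at 1825, 1023 and 774.5 TPM in S156A and 1431, 1339 and 1710 TPM in WT, which also put those 2 libraries first. The row of Mir770, the other hairpin in Meg3, was at 324, 397 and 208 TPM in S156A and 475, 442 and 449 TPM in WT. There WT replicate 1 was highest, as in the annotated row of Meg3, and S156A replicate 1 second lowest. With the assembled loci the log2 ratio of Rian to Meg3 was -1.38, -1.20 and -1.43 in S156A and -1.26, -1.12 and -1.26 in WT, which lay closer together than by the annotated rows. How far the annotated Meg3 level depends on the choice of transcripts in each library was not tested.

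**Figure D2:**
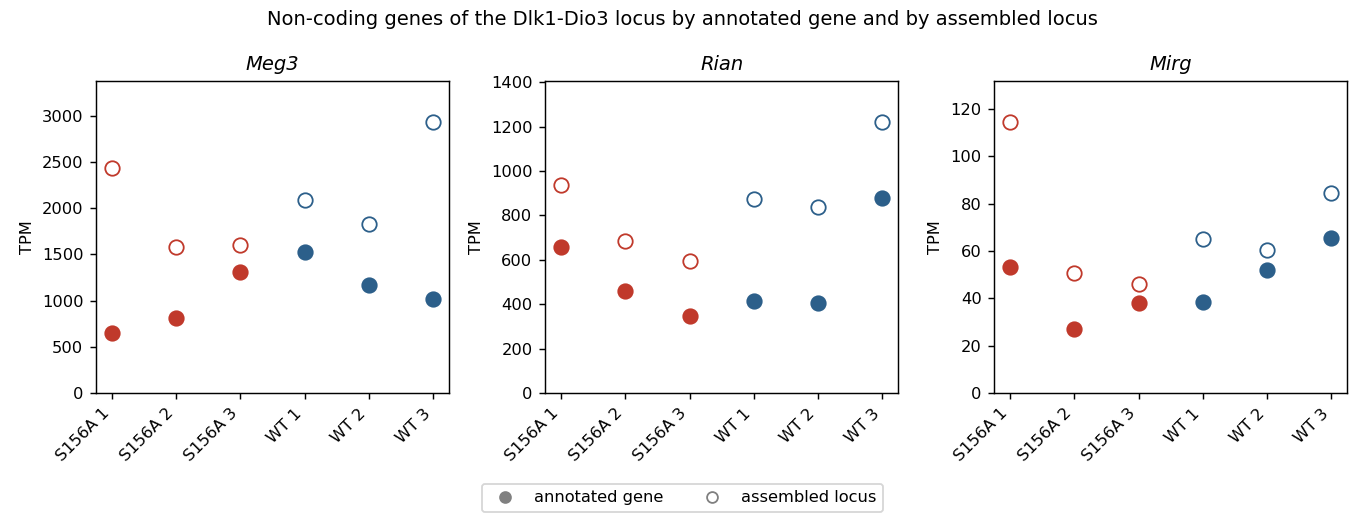
Levels of Meg3, Rian and Mirg in each library, in TPM, with S156A libraries left of WT libraries, filled circles for the annotated gene and open circles for the assembled locus that overlaps it most. For Meg3 in S156A replicate 1 the annotated gene was at 654 TPM and the assembled locus at 2429 TPM, and the open circles of all 3 genes were highest in S156A replicate 1 and WT replicate 3.

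Peg3 (ENSMUSG00000002265.18, chromosome 7, 6706891 to 6733430, minus strand) encodes a large zinc finger protein that is expressed in brain and acts on growth and maternal behaviour in mice. It was at 109, 75.7 and 61.4 TPM in S156A replicates 1 to 3, against 94.0, 92.7 and 117 TPM in WT replicates 1 to 3. S156A replicate 1 exceeded 2 WT libraries, and the other S156A libraries were below all 3. S156A minus WT was, on the log2 scale, -0.34 (SE 0.21, limma adjusted p = 0.52, exact permutation p = 0.3). Without S156A replicate 1 and WT replicate 3 it was -0.45 (SE 0.14, limma adjusted p = 0.22). Peg3, Peg10 and Mirg had both S156A libraries below both WT libraries among these 4, as did 17.7% of all tested genes. The Peg3 neighbour Usp29 was at 5.70, 5.96 and 4.26 TPM in S156A and 19.8, 7.11 and 15.7 TPM in WT, with groups that did not overlap (log2 difference -1.17, SE 0.36, limma adjusted p = 0.24).

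Peg10 (ENSMUSG00000092035.9, chromosome 6, 4747306 to 4760517, plus strand) is a gene derived from a retrotransposon that is required for placental development in mice. It was at 41.8, 41.0 and 32.3 TPM in S156A replicates 1 to 3, against 64.3, 59.4 and 56.3 TPM in WT replicates 1 to 3. All 3 S156A libraries were below all 3 WT libraries, and here S156A replicate 1 and WT replicate 3 did not stand apart from the others. The means were 38.4 ± 5.29 TPM in S156A and 60.0 ± 4.03 TPM in WT (SD, n = 3 each). The log2 difference was -0.64 (SE 0.13, limma unadjusted p = 0.0019, limma adjusted p = 0.13), which does not pass the threshold, and the exact permutation p was 0.1, the smallest possible. Without S156A replicate 1 and WT replicate 3 the difference was -0.75 (SE 0.16, limma adjusted p = 0.14).

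Sgce, which encodes a sarcoglycan, lies head to head with Peg10 and is expressed from the same parental copy. It was at 37.2, 35.6 and 44.4 TPM in S156A and 34.8, 37.0 and 33.8 TPM in WT (log2 difference 0.14, SE 0.13). The log2 ratio of Peg10 to Sgce, a pair chosen after its values were seen, was 0.16, 0.20 and -0.45 in S156A and 0.87, 0.67 and 0.72 in WT. The mean difference was -0.78 and the groups did not overlap (exact permutation p = 0.1, the smallest possible). Further along the same locus Asb4, which encodes an ankyrin repeat protein and was also chosen after its values were seen, was at 7.26, 5.28 and 5.97 TPM in S156A and 10.7, 9.04 and 10.6 TPM in WT (limma adjusted p = 0.24). Calcr, the calcitonin receptor, was at 1.64, 2.27 and 1.95 TPM in S156A and 7.98, 5.38 and 5.01 TPM in WT, with S156A minus WT at -1.25 on the log2 scale (SE 0.25, limma adjusted p = 0.11). Casd1 and Ppp1r9a of this locus had log2 differences of -0.06 (SE 0.12) and 0.14 (SE 0.21). The neighbours at this and the other member loci came to 15 tested genes, of which 0 were called and 6 had an unadjusted limma p under 0.05, against 0.159% and 13.9% of all tested genes.

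**Figure D3:**
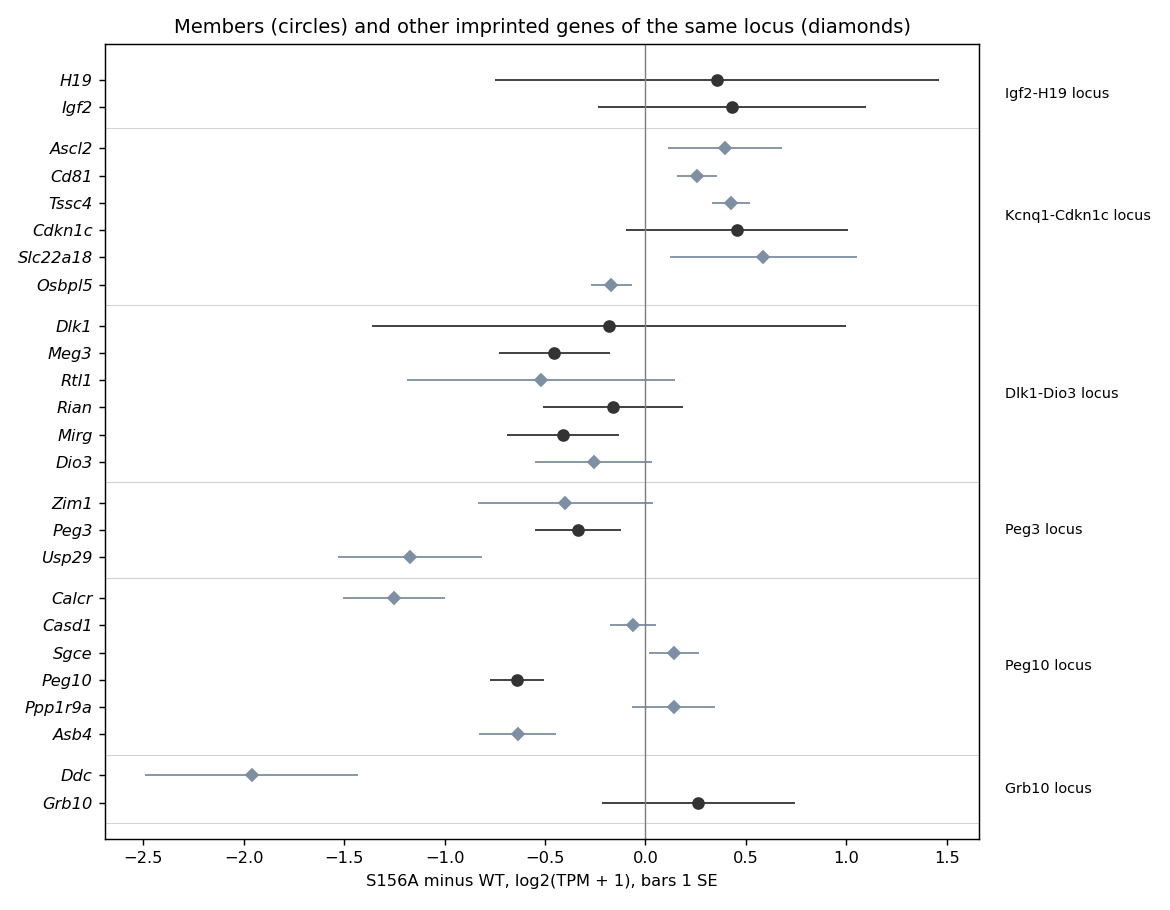
Log2 difference, S156A minus WT, of the members (circles) and of other tested imprinted genes of the same loci (diamonds), with bars of 1 standard error. In the Peg10 locus Peg10 stood at -0.64 and Calcr at -1.25, with Sgce at 0.14.

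Set against Acta1, the members fell into groups. H19 had its 6 libraries in exactly the order of Acta1, as did 125 of 18892 other tested genes or 0.662%, and Dlk1 differed from that order only by a swap of the 2 highest libraries. In S156A replicate 1 H19 was 7.64 and 7.30 times and Dlk1 10.8 and 9.15 times its level in S156A replicates 2 and 3. In WT replicate 3 H19 was 14.5 and 5.09 times and Dlk1 14.1 and 7.29 times its level in WT replicates 1 and 2. Igf2 was 3.08 and 3.10 times higher within S156A and 5.05 and 3.49 times higher within WT, and Cdkn1c 2.53 and 2.05 times within S156A and 3.93 and 3.23 times within WT. Rian, Mirg and Peg3 had smaller ratios, between 1.25 and 2.16, while Peg10 had 1.02 and 1.30 within S156A and 0.876 and 0.949 within WT. In all, 8 of 10 members had S156A replicate 1 and WT replicate 3 as their 2 highest libraries, the exceptions being Meg3 and Peg10, and 13.8% of all tested genes did. The libraries fall into clusters by Acta1, so no correlation over them is given, and the part of muscle in these levels was not tested.

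**Figure D4:**
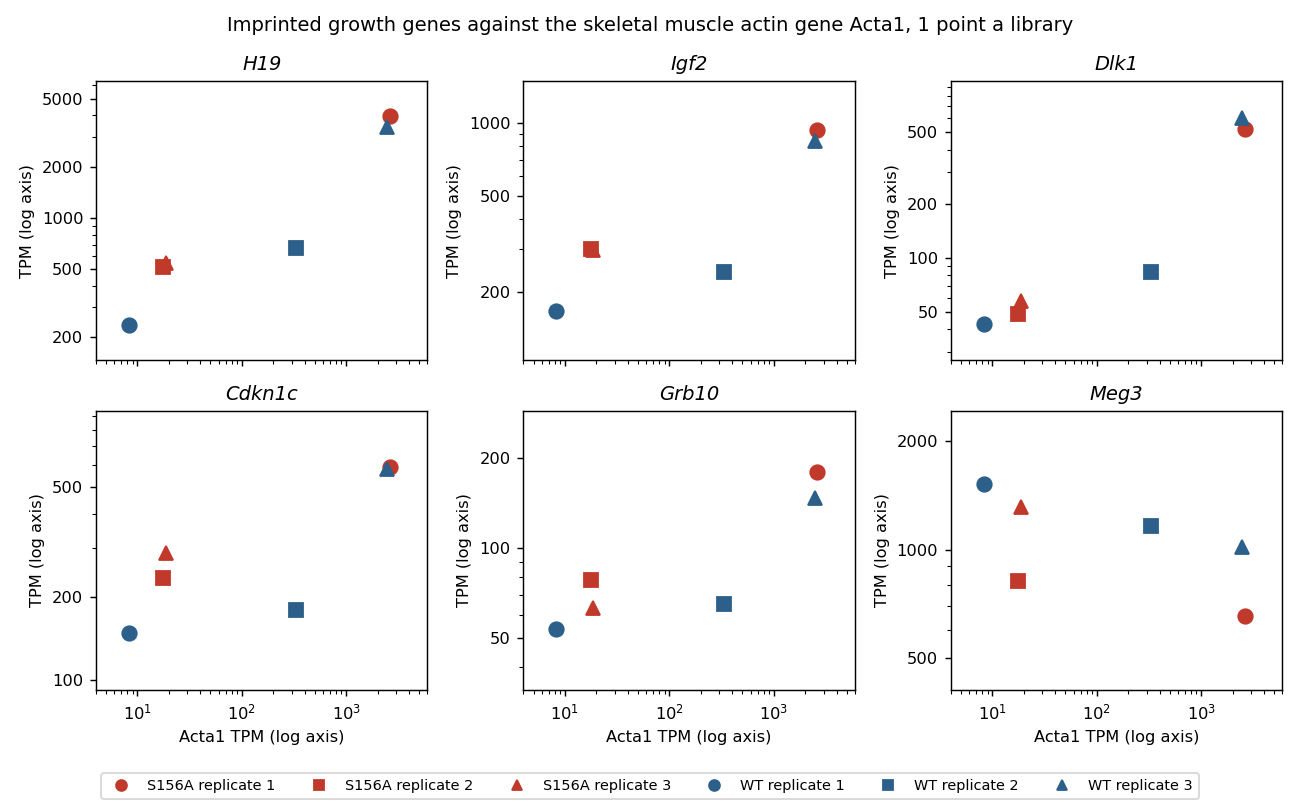
Levels of H19, Igf2, Dlk1, Cdkn1c, Grb10 and Meg3 against Acta1 in the same library, both in TPM on log axes, with 1 point per library, colour for genotype and shape for replicate. The first 5 genes were highest in S156A replicate 1 and WT replicate 3, which lie at the right, whereas Meg3 was at 654 TPM in S156A replicate 1 and 1019 TPM in WT replicate 3.

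Between the 2 libraries of like Acta1 content, S156A replicate 1 and WT replicate 3, ratios of the members lay between 0.642 and 1.23. The ratio of the first to the second was 1.06 for Acta1 itself, 1.10 for Igf2, 1.17 for H19, 0.870 for Dlk1, 1.02 for Cdkn1c and 1.23 for Grb10. It was 0.642 for Meg3, 0.743 for Peg10, 0.751 for Rian, 0.814 for Mirg and 0.926 for Peg3. These are single libraries and have no replicate check. With log2 Acta1 as a covariate in the same limma fit, 0 of 10 members were called, where 338 of all tested genes or 1.79% were. In that fit H19 had a log2 difference of 0.79 (SE 0.27), Igf2 0.68 (SE 0.26), Meg3 -0.54 (SE 0.18) and Peg10 -0.64 (SE 0.14), with limma adjusted p of 0.18, 0.22, 0.18 and 0.074. These 4 had an unadjusted limma p under 0.05, against 19.3% of all tested genes, and Dlk1 turned from -0.18 to 0.26. Without S156A replicate 1 and WT replicate 3, 4 members had an unadjusted limma p under 0.05, namely Cdkn1c, Igf2, Peg3 and Peg10, and 0 were called. The share of all tested genes at that unadjusted p was 16.6%, and 0.0% were called.

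**Figure D5:**
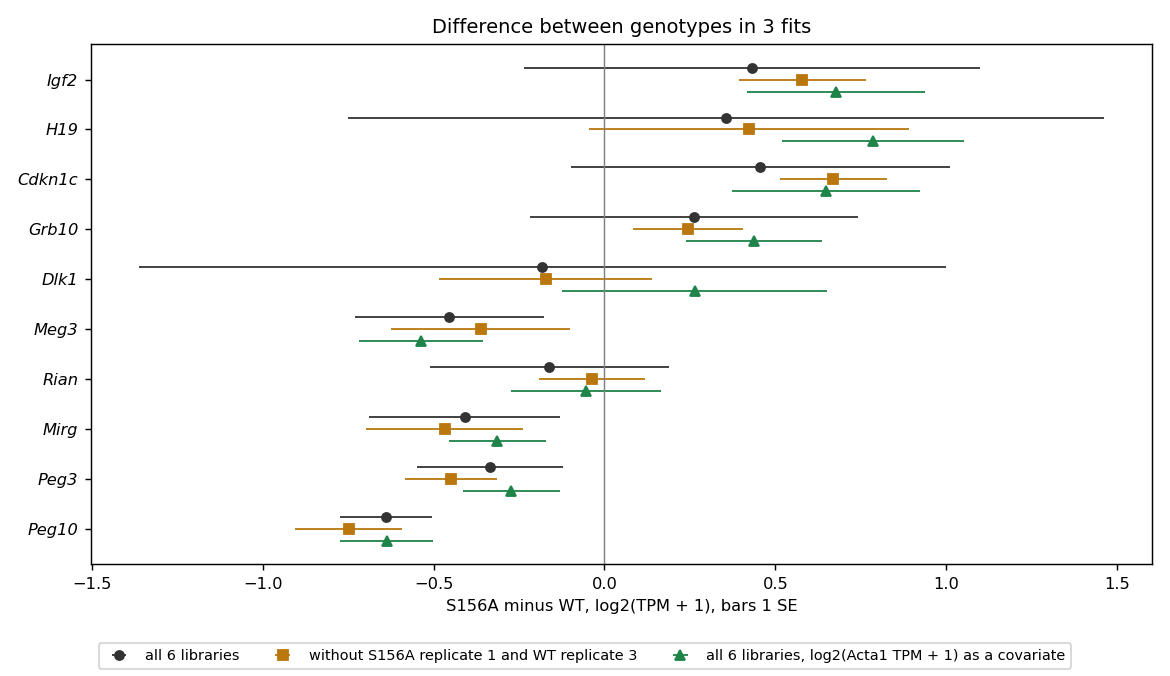
Log2 difference, S156A minus WT, of each member with bars of 1 standard error, in the fit to all 6 libraries, without S156A replicate 1 and WT replicate 3, and with log2 Acta1 as a covariate. Peg10 lay between -0.75 and -0.64 in all 3 fits, whereas Dlk1 moved from -0.18 to 0.26 with the covariate.

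The genes with library patterns most like those of Igf2, H19 and Dlk1 were found by the root mean square distance between mean-centred log2(TPM + 1) values over the 6 libraries. Besides the overlapping Gm49394, the nearest to Igf2 were Flnc, a filamin of muscle, at a distance of 0.07, and Ahnak, a large scaffold protein, also at 0.07. Besides the Mir675 row inside it, the nearest to H19 were Lum, a proteoglycan of connective tissue, at 0.12 and Col1a2, a chain of type I collagen, at 0.17. Lum was at 62.1, 7.53 and 9.77 TPM in S156A and 3.54, 11.01 and 56.3 TPM in WT. Among the nearest to Dlk1 were Mrap, an accessory protein of the melanocortin receptors, at 0.13, and Slc36a2, an amino acid transporter, at 0.14. Mrap was at 10.01, 0.17 and 0.35 TPM in S156A and 0.17, 0.72 and 13.7 TPM in WT. Slc36a2 was at 17.0 and 0.31 TPM in S156A replicates 1 and 2, where Dlk1 was at 525 and 48.6 TPM. The 1 added to TPM shrinks the ratios of such low genes. These 2 genes were thus like Dlk1 on the log2(TPM + 1) scale but not in their ratios of TPM.

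Other imprinted genes were described by their counts. Of 25 tested paternally expressed genes outside the members, 0 were called, 10 had an unadjusted limma p under 0.05, all lower in S156A, and the median log2 difference was -0.24, against 0.09 over all tested genes. In all tested genes that share was 5.5%. Nap1l5, a nucleosome assembly protein of neurons, was at 67.9, 90.0 and 105 TPM in S156A and 192, 185 and 149.7 TPM in WT, with S156A minus WT at -1.01 on the log2 scale (SE 0.18, limma adjusted p = 0.089). Rasgrf1, an exchange factor for Ras in neurons, was at 7.37, 6.12 and 3.09 TPM in S156A and 21.1, 16.4 and 12.4 TPM in WT (log2 difference -1.47, SE 0.32, limma adjusted p = 0.13). Snurf, which shares a transcript and possibly reads with Snrpn, averaged 586 ± 89.3 TPM in S156A and 903 ± 131 TPM in WT (limma adjusted p = 0.20). Of 15 brain neuron genes 5 had an unadjusted limma p under 0.05 with S156A lower and 2 with S156A higher, against 5.5% and 8.41% of all tested genes, and the part of neuron content in these differences was not tested.

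Of 22 tested maternally expressed genes outside the members, 0 were called, 2 had an unadjusted limma p under 0.05 with S156A higher and 4 with S156A lower, against 8.41% and 5.5% of all tested genes, and the median log2 difference was -0.14. Besides Calcr, Tssc4 was at 78.9, 74.98 and 78.3 TPM in S156A and 58.4, 59.4 and 54.3 TPM in WT (log2 difference 0.43, limma adjusted p = 0.14). Kcnk9, a potassium channel of neurons, was at 8.35, 9.71 and 7.82 TPM in S156A and 16.2, 16.2 and 12.5 TPM in WT (log2 difference -0.72, SE 0.18, limma adjusted p = 0.18). Ddc, the aromatic amino acid decarboxylase of dopamine and serotonin neurons and the neighbour of Grb10, was at 10.3, 1.76 and 1.81 TPM in S156A and 16.2, 15.4 and 17.3 TPM in WT (log2 difference -1.96, SE 0.53, limma adjusted p = 0.20). Ddc was listed here as maternally expressed. Its parental copy was not measured, so its place in that list and in the counts above is uncertain. Of 12 dopaminergic and serotonergic marker genes 8 had an unadjusted limma p under 0.05, all with S156A lower, against 5.5% of all tested genes.

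S156A replicate 1 and WT replicate 3 were the 2 highest for 5 of the 25 paternally expressed genes and 7 of the 22 maternally expressed genes, next to 8 of 10 members and 13.8% of all tested genes. Mest, Slc38a4 and Igf2r are shown from these, chosen after their values were seen. Mest, a growth gene of mesoderm, was at 309.6, 114 and 96.1 TPM in S156A and 66.8, 91.0 and 270.5 TPM in WT. Slc38a4, an amino acid transporter, was at 18.2, 0.30 and 0.30 TPM in S156A and 0.20, 0.33 and 18.6 TPM in WT. Igf2r, the receptor that clears insulin-like growth factor 2, was at 46.4, 26.7 and 18.51 TPM in S156A and 18.6, 23.3 and 38.6 TPM in WT.

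The insulin-like growth factor pathway in which Igf2 acts was described with 20 tested genes. None was called, 2 had an unadjusted limma p under 0.05 with S156A higher and 1 with S156A lower, close to the 8.41% and 5.5% of all tested genes, and the median log2 difference was 0.16. Igfbp2, a secreted binding protein of the growth factors, was at 530.4, 465 and 598 TPM in S156A and 310.1, 366 and 411 TPM in WT, with groups that did not overlap (log2 difference 0.55, SE 0.15, limma adjusted p = 0.20). Igf2bp1 and Igf2bp3, which encode proteins that bind Igf2 messenger RNA, averaged 7.23 ± 1.11 and 14.9 ± 1.44 TPM in S156A and 4.32 ± 0.52 and 11.5 ± 0.89 TPM in WT (SD, n = 3 each, limma adjusted p = 0.27 and 0.38). Irs4, an adaptor of the insulin and growth factor receptors, averaged 3.20 ± 0.31 TPM in S156A and 5.40 ± 0.11 TPM in WT (limma adjusted p = 0.27). In this pathway 9 of 20 genes had S156A replicate 1 and WT replicate 3 highest, against 13.8% of all tested genes.

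Markers of the non-neural tissues in which Igf2 and its partners are expressed were read beside them. Of all tested genes, 8.41% had an unadjusted limma p under 0.05 with S156A higher. Of 22 tested genes of mesenchyme, meninges, bone and cartilage 0 were called, 2 had such a p, both higher in S156A and near that share, and the median log2 difference was 0.45. Col1a1, a chain of type I collagen, was at 1318, 140.4 and 148 TPM in S156A and 53.0, 216 and 934.5 TPM in WT, with the 2 libraries richest in Acta1 highest. Ptgds, a prostaglandin synthase of the meninges and choroid plexus, averaged 1329 ± 177 TPM in S156A and 668 ± 175 TPM in WT (SD, n = 3 each, log2 difference 1.02, limma adjusted p = 0.14). Of 10 tested choroid plexus genes 6 had an unadjusted limma p under 0.05, all higher in S156A, and their 12 listed genes summed to 2400, 2520 and 3544 TPM in S156A and 1582, 1296 and 1170 TPM in WT. Ttr, the thyroxine carrier of the choroid plexus, averaged 2611 ± 631 TPM in S156A and 1223 ± 226 TPM in WT (limma adjusted p = 0.12). It made up most of the choroid plexus sum, at 2177, 2321 and 3335 TPM in S156A and 1471, 1169 and 1028 TPM in WT. The sum and the level of Ttr are therefore not separate results. Of 14 tested endothelial and mural genes 4 had an unadjusted limma p under 0.05, all higher in S156A, with a median of 0.35. Gh, the growth hormone of the anterior pituitary, was at 310.3, 166 and 130 TPM in S156A and 0, 1.69 and 97.1 TPM in WT, while Fshb of the same list was at 0 in all 6 libraries. S156A replicates 2 and 3 both lay above WT replicates 1 and 2 for 2 of 10 members (Igf2 and Cdkn1c), 12 of 22 tested mesenchyme genes and 10 of 10 tested choroid plexus genes, against 32.2% of all tested genes, so the share of members was below that of all genes. The part of these tissues in the levels of Igf2 and Cdkn1c was not tested.

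Promoter windows of the members are shown for Igf2, Dlk1 and Grb10, which had the same 2 libraries highest, and for Meg3, whose annotated row did not and whose assembled locus did. Windows of 300 bases, from 250 before to 50 after a transcription start, were taken from RefSeq on GRCm38.p6, and 7 of the 10 genes matched, with 12 starts in all. H19, Peg10 and Cdkn1c are named only. In the windows below capitals mark matches, on either strand, to CAGCTG (an E-box of the kind bound by muscle factors), to the core promoter motif TATAAA, and to GGGCGG, the site of Sp1.
Igf2, start 3 of 4, chr7:142658755-142659054, minus strand: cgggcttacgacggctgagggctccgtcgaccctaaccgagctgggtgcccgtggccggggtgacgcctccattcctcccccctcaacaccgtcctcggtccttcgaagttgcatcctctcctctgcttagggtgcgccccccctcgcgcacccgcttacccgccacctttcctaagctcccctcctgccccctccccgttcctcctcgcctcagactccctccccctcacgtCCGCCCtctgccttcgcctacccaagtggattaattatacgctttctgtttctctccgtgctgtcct
Dlk1, chr12:109452573-109452872, plus strand: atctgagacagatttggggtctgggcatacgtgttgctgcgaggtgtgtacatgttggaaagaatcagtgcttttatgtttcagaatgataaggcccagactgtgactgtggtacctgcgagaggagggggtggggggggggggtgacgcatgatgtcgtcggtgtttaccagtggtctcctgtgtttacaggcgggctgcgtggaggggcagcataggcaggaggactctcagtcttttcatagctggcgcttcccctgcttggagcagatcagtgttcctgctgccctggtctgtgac
Meg3, start 1 of 2, chr12:109540746-109541045, plus strand: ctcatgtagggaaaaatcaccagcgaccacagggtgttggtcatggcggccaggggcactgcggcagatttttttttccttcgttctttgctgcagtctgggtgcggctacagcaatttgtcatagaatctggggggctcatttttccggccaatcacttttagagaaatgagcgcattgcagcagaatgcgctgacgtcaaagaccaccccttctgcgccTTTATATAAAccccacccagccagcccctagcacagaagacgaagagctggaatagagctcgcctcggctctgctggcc
Grb10, start 1 of 2, chr11:12037371-12037670, minus strand: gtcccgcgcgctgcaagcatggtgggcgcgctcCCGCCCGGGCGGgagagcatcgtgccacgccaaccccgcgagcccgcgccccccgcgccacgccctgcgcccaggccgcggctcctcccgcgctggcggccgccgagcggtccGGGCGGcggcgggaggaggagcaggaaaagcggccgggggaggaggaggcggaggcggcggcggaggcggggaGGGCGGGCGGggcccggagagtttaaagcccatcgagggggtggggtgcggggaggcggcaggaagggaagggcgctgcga
CAGCTG was found in 0 of the 12 windows and in 16.3% of 32851 promoter windows of all genes. The Meg3 window held 2 overlapping matches to TATAAA, 1 on each strand, which 13.6% of all windows hold at least once. The Grb10 window held 5 matches to GGGCGG and the Igf2 window 1, with 35.7% of all windows holding at least 1. At the starts not shown, matches to GGGCGG were 0, 0 and 2 for Igf2 and 0 for Grb10. The Meg3 start not shown held 0 matches to TATAAA. GC contents were 64.7% for Igf2, 55.7% for Dlk1, 53.7% for Meg3 and 80.0% for Grb10, against a median of 52.7% over all windows. For Igf2, Meg3 and Grb10 the window shown was the one of highest GC. The starts not shown had 52.3%, 49.7% and 63.3% for Igf2, 50.3% for Meg3 and 52.3% for Grb10. The Dlk1 window held none of the 3 motifs, and the matches are descriptions of sequence only.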

How the data were processed

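RNA from pooled whole brains was sequenced from 6 libraries made with a strand-keeping kit, per the labels' protocols. The submitters' processing notes list StringTie 2.1.5, HISAT2 2.2.1 and Trim Galore 0.6.6. Tables deposited for each library are StringTie gene abundance tables with coverage (signal per base), FPKM and TPM, per the file headers. The authors' deposited TPM column holds annotated genes beside assembled loci, and each kind of row sums to about the whole library, so only annotated rows were used, with rows of the same gene identifier summed. FPKM values deposited by the authors were used as an alternative. The most frequent rounded ratio of deposited coverage to FPKM gave the estimated depth. Only 12.8% to 13.9% of the rows used for it held that ratio, so the depth is approximate. The tables hold no read counts, so no counting interval is given. The sources used here do not give the strand setting, the annotation release or any filter. The notes name the human build hg38, whereas the rows are mouse genes. The mouse build is likewise not given: of 52083 genes matched by identifier to GENCODE M21 on GRCm38, 4.15% started within 1000 bases. Gene coordinates are therefore those of the files, while sequences carry GRCm38.p6 coordinates.

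Genes whose mean TPM reached 1 were fitted on log2(TPM + 1), which understates differences of low genes, with limma 3.58.1 in R 4.3.3 (eBayes with trend, two-sided, no covariate, S156A minus WT). P-values were adjusted by Benjamini-Hochberg over the 18893 genes tested, with 0.05 as the threshold for a call. Single values and ratios within a library were compared by an exact two-sided permutation test of 3 against 3 libraries, without adjustment. In simulated data for this comparison with 18893 genes, 10 of 50 genes changed by a log2 of 0.5 were called. The counts were 47 of 50 at 1 and 50 of 50 at 2 and at 3, with 7 false calls. Every simulated gene had the same noise, the median standard deviation within groups. These counts therefore do not show what could be called in members as variable as Dlk1, H19 and Igf2 (SE 1.18, 1.11 and 0.67). Alternatives were FPKM, pseudocounts of 0.1 and 5, a filter at a mean TPM of 5 or none, quantile normalization, scaling by trimmed means, TPM rescaled without the muscle list, eBayes without trend, log2 Acta1 as a covariate, a replicate block and libraries left out. Added after the data were seen were the assembled locus, Igf2 summed with Gm49394, and the ratio of Peg10 to Sgce. The members and gene lists were chosen with earlier results of these data known, and the counts over the lists support nothing on their own. All members and Acta1 were named. From each list of imprinted or growth factor genes the 4 genes of smallest unadjusted p were named, from each cell type list up to 3 of highest level, and 3 nearest patterns for each of Igf2, H19 and Dlk1. Not all of the genes that the rule names are reported here. Other genes named were chosen after their values were seen, which holds for Ppme1, the locus neighbours other than Usp29, Calcr, Tssc4 and Ddc, and the muscle and pituitary genes given at 0.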

Additional observations from a re-analysis of the deposited data

How the results depend on the processing

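Of the 10 members 0 were called under every alternative run, and Meg3, Mirg, Peg3, Peg10 and Cdkn1c kept their sign in all of them, though not their size. With log2 Acta1 as a covariate 5 of 25 other paternally and 1 of 22 maternally expressed imprinted genes were called, all lower in S156A. The share of all tested genes called in that fit was 1.79%. The genes were Snrpn, Snurf, Ndn, Nap1l5 and Inpp5f, and the maternally expressed Calcr, and Snrpn and Snurf may share reads. Without the covariate 0 of each list were called. With the covariate Dlk1 turned to 0.26. With the assembled loci the Rian to Meg3 difference turned to -0.12, and without both S156A replicate 1 and WT replicate 3 that of Mirg to Meg3 turned to -0.11. The cause was not tested. With 1 library left out at a time the log2 differences ran from -0.11 to 1.12 for Igf2, -0.61 to 1.39 for H19, -1.28 to 0.92 for Dlk1, -0.19 to 0.70 for Grb10, -0.40 to 0.20 for Rian, 0.06 to 1.07 for Cdkn1c, -0.74 to -0.23 for Meg3, -0.65 to -0.17 for Mirg and -0.56 to -0.15 for Peg3. Mirg was lowest without S156A replicate 1 and nearest 0 without S156A replicate 2, Peg3 lowest without S156A replicate 1 and nearest 0 without S156A replicate 3. The ratios ran from -0.27 to 0.50 for Igf2 to H19, -1.05 to 1.51 for Dlk1 to Meg3, -0.17 to 0.79 for Rian to Meg3 and -0.41 to 0.35 for Mirg to Meg3. The difference of Peg10 ran from -0.70 to -0.52 and of Peg10 to Sgce from -0.89 to -0.57. The count of calls over all genes was 30, and 338 with the Acta1 covariate, 75 by trimmed means, 52 by quantiles, 16 without trend, 2 without a filter and 0 to 70 with 1 library left out, the highest without WT replicate 3. With a replicate block 0 of all genes and 0 of the members were called. Same-numbered libraries correlated at -0.548, 0.195 and -0.412 in their deviations from the group means, and S156A replicate 1 correlated best with WT replicate 3, so the numbers were not taken as pairs. The pools are few, the depth in reads is unknown, and levels of transcripts that overlap on 1 strand may be split between rows.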

Other observations

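The imprinted genes of the Snrpn region on mouse chromosome 7, chosen after their values were seen, were read as a group because 5 of them are among the 10 paternally expressed genes with an unadjusted limma p under 0.05. Snrpn, a splicing protein of neurons, was at 263, 352 and 346 TPM in S156A replicates 1 to 3, against 577, 507 and 380.4 TPM in WT replicates 1 to 3 (log2 difference -0.60, SE 0.19, limma adjusted p = 0.26). Ndn, which encodes a growth suppressor of neurons, was at 243, 312 and 354 TPM in S156A and 493, 465 and 367 TPM in WT. Magel2, of the same protein family, was at 23.5, 20.6 and 18.7 TPM in S156A and 33.4, 28.6 and 26.1 TPM in WT. Snhg14, the long noncoding host of small nucleolar RNAs that runs on toward Ube3a, was at 22.1, 38.9 and 23.0 TPM in S156A and 44.2, 52.8 and 33.3 TPM in WT. The limma adjusted p was 0.26 for Ndn, 0.26 for Magel2 and 0.34 for Snhg14, so none of them passed the threshold in the main fit. For Snrpn, Ndn and Magel2 all 3 S156A libraries were below all 3 WT libraries, which held for 7.05% of all tested genes. For Snhg14 the groups overlapped. The region was picked by unadjusted p, so this separation is not a further result. Mkrn3 and Peg12 of this region had log2 differences of -0.22 (SE 0.17) and 0.38 (SE 0.24). Ube3a, expressed from the maternal copy in neurons, was at 44.3, 57.5 and 53.1 TPM in S156A and 54.4, 50.6 and 51.6 TPM in WT. The neuron marker Stmn2 was at 659, 908 and 932 TPM in S156A, against 1380, 1256 and 958 TPM in WT (log2 difference -0.52, limma adjusted p = 0.32). Neuron markers did not all go this way. Tubb3 had a log2 difference of -0.39 (limma adjusted p = 0.46) and Dcx one of 0.34 (limma adjusted p = 0.40). Of the 15 brain neuron genes 10 had a negative and 5 a positive difference, against 7236 and 11657 of all tested genes. The part of neuron content in the levels of the Snrpn region was not tested.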
